A study of Debaryomyces hansenii with 6 samples.

Results

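The later response of Debaryomyces hansenii to salt was set against the early one. This salt-tolerant yeast was grown in rich YPD medium at 30 °C to early log phase and placed in 2 M NaCl, and cells were sampled after 0.5, 3 and 6 h. The comparison used the 2 arrays of 6 h and the 2 arrays of 0.5 h, 4 of the 6 arrays of the series, and the 2 arrays of 3 h entered the estimate of the spread. On each 2-colour Agilent array the RNA of salt-treated cells was hybridised together with RNA of control cells collected at time 0, before the salt. The dyes were swapped between replicates, with the salt-treated RNA in Cy5 on the arrays of replicate 1 and in Cy3 on those of replicate 2, and per the series design the replicates were different biological samples. Replicate and dye orientation therefore coincide. Neither the strain nor whether the 0.5 and 6 h samples came from 1 culture is given in the sources used here.

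Yeast cells moved into concentrated salt lose water at first and take up sodium. In the well-studied yeast Saccharomyces cerevisiae the high osmolarity glycerol (HOG) kinase cascade then switches on glycerol synthesis and many stress genes, protein synthesis slows, and much of this first wave of transcription fades as the cells adapt. Debaryomyces hansenii is known for growth in salt that stops most yeasts, with glycerol as its main osmolyte. The 6 h against 0.5 h comparison asks which transcripts differed between the late and the first phase of this exposure.

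Each value below is a log2 ratio of stressed over control RNA, or the difference between such ratios, 6 h minus 0.5 h, so that a positive difference means a higher level at 6 h. A ratio is relative to the other transcripts in equal amounts of labelled RNA. A change in RNA per cell and a change in the share of cells with the transcript therefore cannot be told apart. There were no untreated cells of 0.5 or 6 h, so time in salt and time in culture cannot be told apart either. Of 6320 genes on the array, 5966 were tested and 5120 of those had a locus name. The array describes no gene by function, and no symbol of the 13 gene lists drawn up for salt stress matched a tested gene, so loci are given without a role. The share of probes detected well above background on the 4 arrays was 76.4% to 91.9% for salt-treated RNA and 62.4% to 71.7% for control RNA. P-values measure the spread between these arrays.

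Most transcripts had similar levels at 6 h and 0.5 h, and a small set stood far out in both replicates. The difference was taken in each replicate between the 2 arrays of the same dye orientation, so that a dye bias of a probe is the same on both and drops out. Between the 1st and the 99th percentile the mean difference ran from -0.98 to 1.16. Its median was 0.0032 and its SD 0.38 over 5959 genes with a value on all 4 arrays. The replicate 1 and replicate 2 differences correlated across genes with Pearson's r = 0.45 and Spearman's rho = 0.35, as a description, since genes are not independent replicates. They shared the same sign for 61.5% of the genes. At least 1 log2 unit higher at 6 h in both replicates were 57 genes, or 0.955% of those tested. At least 1 unit lower in both were 28 genes, or 0.469%. These 85 genes were chosen by the size of their difference, so that their values are a description of the comparison and were not tested as a set.

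**Figure D1:**
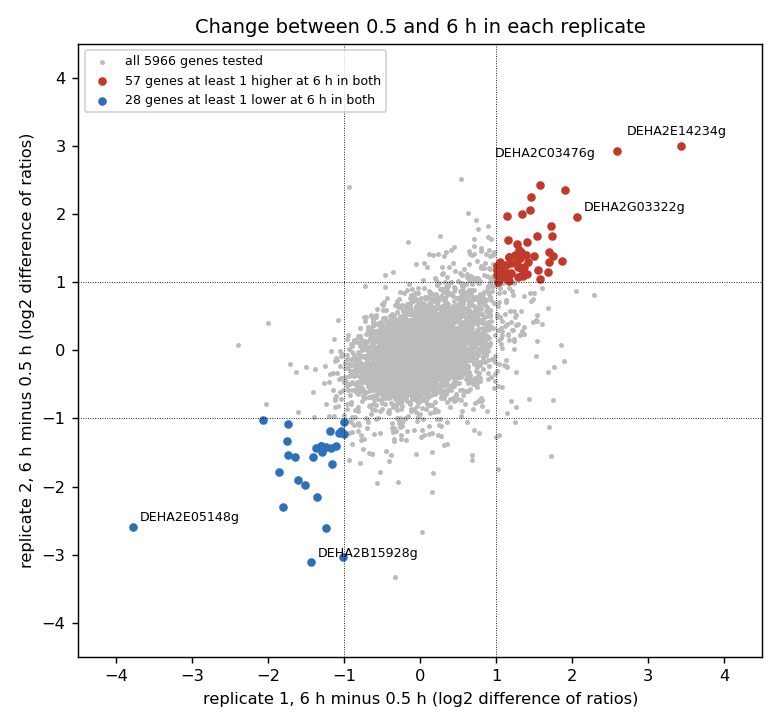
Difference of the log2 stress over control ratio, 6 h minus 0.5 h, in replicate 1 (x axis) and replicate 2 (y axis) for the genes tested, 5959 of which had a value on all 4 arrays. Red points are the 57 genes at least 1 log2 unit higher at 6 h in both replicates and blue points the 28 genes at least 1 unit lower, with dotted lines at 1 and -1. DEHA2E14234g and DEHA2C03476g lie farthest up and right, and DEHA2E05148g farthest left.

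In limma, 2 of 5966 genes differed between 6 h and 0.5 h at an adjusted p of 0.05, or 0.0335% of those tested, and both were higher at 6 h. DEHA2E14234g had log2 ratios of 0.65 and 0.14 at 6 h, against -2.78 and -2.87 at 0.5 h. It was far below the control after 0.5 h on both arrays, and at 6 h both arrays lay slightly above it, with no overlap. The difference was 3.22 ± 0.24 (SE, 2 arrays per time), a 9.30-fold higher level at 6 h, with an adjusted p of 0.00741. Its other probe gave a difference of 3.41. The 3 h arrays stood at 0.66 and 0.36, so the return was already complete there.

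DEHA2C03476g followed the other course. Its log2 ratios were 2.51 and 2.80 at 6 h, against -0.08 and -0.12 at 0.5 h. The transcript sat at the control level after 0.5 h on both arrays and well above it at 6 h. It rose by 2.76 ± 0.25 (SE), or 6.77-fold, with an adjusted p of 0.0134, and its other probe gave 2.58. At 3 h it had reached 1.59 and 2.14.

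Across alternative settings the difference of DEHA2E14234g ran from 2.96 to 3.47 and that of DEHA2C03476g from 2.34 to 3.83, the highest with the scanner software's processed signals. The adjusted p of DEHA2E14234g was 0.05 or more in 5 of 19 alternative settings and that of DEHA2C03476g in 9 of 18. Without replicate 1 of 6 h the adjusted p was 0.0604 for each locus. Without replicate 2 of 6 h it was 0.185 for DEHA2C03476g. Without replicate 1 of 0.5 h the values were 0.247 for DEHA2E14234g and 0.267 for DEHA2C03476g, and without replicate 2 they were 0.147 and 0.268. An unadjusted p under 0.05 was found for 492 genes, 282 higher and 210 lower at 6 h, or 8.25% of those tested, and 0 of the genes lower at 6 h passed the adjusted threshold. With the replicate number, and so the dye orientation, as a block, 5 genes passed, or 0.0838% of those tested, 3 higher and 2 lower at 6 h.

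**Figure D2:**
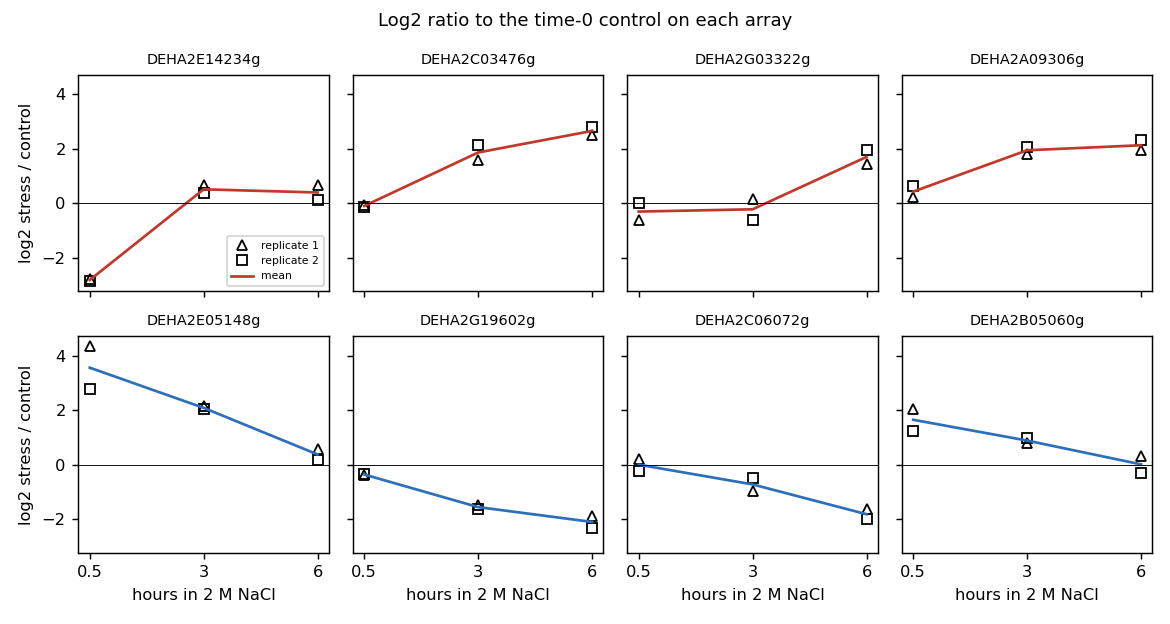
Log2 ratio of stressed over control RNA (y axis) after 0.5, 3 and 6 h in 2 M NaCl (x axis, evenly spaced) for 8 loci. Triangles are replicate 1, squares replicate 2 and lines their mean, red where 6 h was above 0.5 h and blue where it was below. DEHA2E14234g climbed back to the control level by 3 h, the mean of DEHA2G03322g stayed near it until 3 h, and DEHA2E05148g came down at each step.

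The 57 genes higher at 6 h fell into 3 courses by their mean ratio at 0.5 h. After 0.5 h, 31 of them already stood at 0.5 or more above the control, 22 lay within 0.5 of it, and 4 lay 0.5 or more below it. By these means the largest group was already above the control at 0.5 h, but the 0.5 h ratios were not tested. In many of its genes only 1 of the 2 arrays reached 0.5, as in DEHA2A11506g with 0.01 and 1.21 at 0.5 h. In most of these it was the array of replicate 2, and so of 1 dye orientation. Placement in this group therefore leans on that replicate for them. The median ratio of the 31 genes was 2.08 at 6 h, against 0.84 at 0.5 h, and all 31 lay between 1.61 and 2.58 at 6 h. For the 22 genes near the control at 0.5 h the median was 1.72 at 6 h, against 0.27 at 0.5 h. The 4 that began below the control had a median of 0.38 at 6 h, against -1.10 at 0.5 h, and all 4 were within 0.5 of the control at 6 h.

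Among the 12 loci with the highest moderated statistic, 10 did not pass the threshold, with adjusted p-values from 0.125 to 0.189. Their values are given as measured. For all 24 ranked loci, choice by this statistic favoured 6 h and 0.5 h arrays that do not overlap. A lack of overlap therefore adds no support. DEHA2A09306g was near the control first, with ratios of 1.96 and 2.31 at 6 h, against 0.22 and 0.63 at 0.5 h. The groups did not overlap, and the difference was 1.70 ± 0.24 (SE). DEHA2A11198g had 1.64 and 1.85 at 6 h, against 0.23 and 0.26 at 0.5 h. DEHA2D11968g had 1.89 and 1.72 at 6 h, against 0.63 and 0.16 at 0.5 h. These 3 loci were about as high at 3 h as at 6 h, with 3 h means of 1.95, 1.71 and 1.74. DEHA2C02552g had 1.34 and 1.55 at 6 h, against -0.20 and -0.14 at 0.5 h, and it stood higher at 3 h, at 2.28 and 1.59.

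DEHA2G03322g was the late one of this set. Its ratios were 1.44 and 1.97 at 6 h, against -0.62 and 0.00 at 0.5 h, a difference of 2.01 ± 0.34 (SE), and the 3 h arrays gave 0.16 and -0.61. Its means therefore lay within 0.5 of the control at both earlier times, at -0.31 and -0.22, though 1 array of each time lay beyond that. The following loci, chosen after their values were seen, had a similar course by their means, also with single arrays beyond 0.5 in some. DEHA2C07370g had 1.94 and 3.29 at 6 h, against 0.04 and 0.94 at 0.5 h, with a 3 h mean of 0.40. DEHA2E06908g had 1.67 and 2.63 at 6 h, against -0.04 and 0.81 at 0.5 h, with a 3 h mean of 0.24. For DEHA2E14564g the ratios were 1.07 and 2.55 at 6 h, against -0.37 and 0.48 at 0.5 h, with a 3 h mean of 0.13. In each of these 3 loci replicate 2 was the higher array at both times, and the replicate differences were closer to each other than the ratios were.

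Of the 12 ranked loci, 4 had a mean ratio already 0.5 or more above the control at 0.5 h. DEHA2F18832g had ratios of 1.99 and 1.79 at 6 h, against 0.59 and 0.68 at 0.5 h. DEHA2A07128g had 1.71 and 1.92 at 6 h, against 0.55 and 0.54 at 0.5 h. DEHA2E07458g had 1.74 and 1.67 at 6 h, against 0.55 and 0.54 at 0.5 h. All 3 were 2.24 to 2.41 times as high at 6 h as at 0.5 h, and their 6 h and 0.5 h arrays did not overlap. DEHA2B04906g had 1.99 and 1.82 at 6 h, against 0.82 and 0.45 at 0.5 h, a difference of 1.27 ± 0.23 (SE). Among the rest of this group, named after their values were seen, DEHA2G18964g had the highest 6 h ratio, with 1.92 and 3.24 at 6 h, against 0.35 and 0.81 at 0.5 h. Its replicates lay farther apart than those of the 4 ranked loci, with a difference of 2.00 ± 0.59 (SE), and it was higher still at 3 h, at 2.29 and 4.03.

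Return from a low level at 0.5 h was also seen at DEHA2G21296g, with ratios of 0.34 and 0.40 at 6 h, against -1.05 and -1.01 at 0.5 h. Its replicate differences were 1.38 and 1.40, and its adjusted p was 0.125. DEHA2D14234g, chosen after its values were seen, had 0.49 and 0.43 at 6 h, against -1.01 and -0.95 at 0.5 h. Both loci moved in the direction of DEHA2E14234g but by less, since they began 1 unit and not nearly 3 units below the control.

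**Figure D3:**
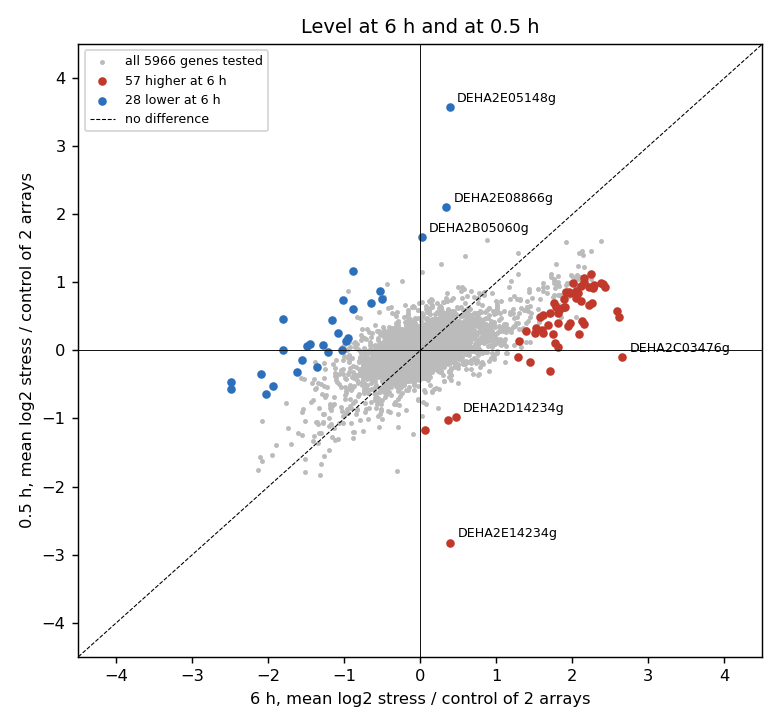
Mean log2 stress over control ratio of 2 arrays at 6 h (x axis) and at 0.5 h (y axis) for each of 5966 genes tested, with the dashed line where both are equal. Red points are the 57 genes higher at 6 h in both replicates and blue points the 28 lower. Most red points lie at 6 h ratios above 1.5 with 0.5 h ratios from near 0 to 1, while DEHA2E14234g and DEHA2E05148g lie near 0 at 6 h and far from 0 at 0.5 h.

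The 28 genes lower at 6 h held a first group of 9 whose mean ratio had been 0.5 or more above the control at 0.5 h. Of these, 3 were back within 0.5 of the control at 6 h and 6 had crossed below it. DEHA2E05148g had the largest difference in size of the 28, and it was also the locus with the highest ratio at 0.5 h among those described here. Its ratios were 0.58 and 0.19 at 6 h, against 4.37 and 2.78 at 0.5 h. Every 6 h array lay far below every 0.5 h array, and the 3 h arrays, at 2.15 and 2.04, lay between. The difference was -3.19 ± 0.46 (SE), 9.12-fold lower at 6 h, with a 95% interval from -4.24 to -2.13 and an adjusted p of 0.125. Its 0.5 h arrays lay farther apart than those of any other of the 24 ranked loci, and its value depends on which of them is used. Without replicate 1 of 0.5 h the difference was -2.39 with an adjusted p of 0.267, and without replicate 2 it was -3.98 with 0.0366. Leaving out a 6 h array gave adjusted p-values of 0.185 (replicate 1 left out) and 0.604 (replicate 2 left out).

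A similar course was measured for 2 loci named after their values were seen. DEHA2B05060g had ratios of 0.32 and -0.28 at 6 h, against 2.07 and 1.25 at 0.5 h, and 0.79 and 1.00 at 3 h. DEHA2E08866g had 0.81 and -0.12 at 6 h, against 2.42 and 1.79 at 0.5 h. Its 3 h arrays disagreed, at 0.03 and 2.73, and its adjusted p was 0.607. DEHA2G00946g and DEHA2F04752g, from the ranked loci, were below the control at 6 h and above it at 0.5 h. DEHA2G00946g had -0.50 and -0.56 at 6 h, against 0.87 and 0.87 at 0.5 h. DEHA2F04752g had -0.33 and -0.68 at 6 h, against 0.78 and 0.73 at 0.5 h, and its adjusted p was 0.160.

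The second and larger group, 16 genes, stood within 0.5 of the control at 0.5 h and was lower at 6 h. Its median was -1.40 at 6 h, against 0.03 at 0.5 h. DEHA2G19602g had the lowest adjusted p of the loci lower at 6 h, 0.120. Its ratios were -1.88 and -2.32 at 6 h, against -0.36 and -0.35 at 0.5 h, and its 3 h arrays, at -1.48 and -1.63, lay closer to the 6 h arrays than to those of 0.5 h. DEHA2C06072g had a mean ratio of -1.81 at 6 h, against 0.01 at 0.5 h, a difference of -1.82 ± 0.27 (SE), and its replicate differences were -1.86 and -1.78. DEHA2C03630g had -1.42 and -1.55 at 6 h, against 0.33 and -0.21 at 0.5 h. Both lay near or moderately below the control at 3 h, with means of -0.72 and -0.22.

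DEHA2A02090g showed the widest gap between replicates of the ranked loci lower at 6 h other than DEHA2E05148g. Its ratios were -1.60 and -1.31 at 6 h, against 0.47 and -0.28 at 0.5 h, so that the replicate differences were -2.08 and -1.03. DEHA2C04268g had -1.43 and -1.80 at 6 h, against -0.26 and -0.37 at 0.5 h. DEHA2E08030g had -0.85 and -1.06 at 6 h, against 0.22 and 0.15 at 0.5 h. The ranked loci DEHA2E16346g and DEHA2C04510g are not among the 28, since their replicate 1 differences were -0.93 and -0.94. For DEHA2E16346g the ratios were -0.80 and -1.09 at 6 h, against 0.14 and 0.12 at 0.5 h. Its other probe gave a mean difference of -0.56, against -1.07 for the probe used, with -0.006 in replicate 1 and -1.12 in replicate 2. The other probe thus showed almost no change in replicate 1, and the change of this locus is uncertain. DEHA2C04510g had -0.59 and -1.01 at 6 h, against 0.35 and 0.59 at 0.5 h, a difference of -1.27 ± 0.24 (SE). In all of these loci the groups did not overlap, as the choice by rank made likely, and the adjusted p-values ran from 0.160 to 0.189.

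The remaining 3 genes were already 0.5 or more below the control at 0.5 h and were lower still at 6 h, with a median of -2.03 at 6 h, against -0.57 at 0.5 h. One was DEHA2E18568g, with -1.89 and -2.18 at 6 h, against -0.59 and -0.69 at 0.5 h, and -0.34 and 0.08 at 3 h. Its other probe gave a mean difference of -0.43 in place of -1.39, with 0.40 in replicate 1 and -1.27 in replicate 2, so the probes disagreed in direction in replicate 1 and the change of this locus is uncertain. DEHA2F27104g, named after its values were seen, had -1.80 and -3.19 at 6 h, against -0.56 and -0.58 at 0.5 h.

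**Figure D4:**
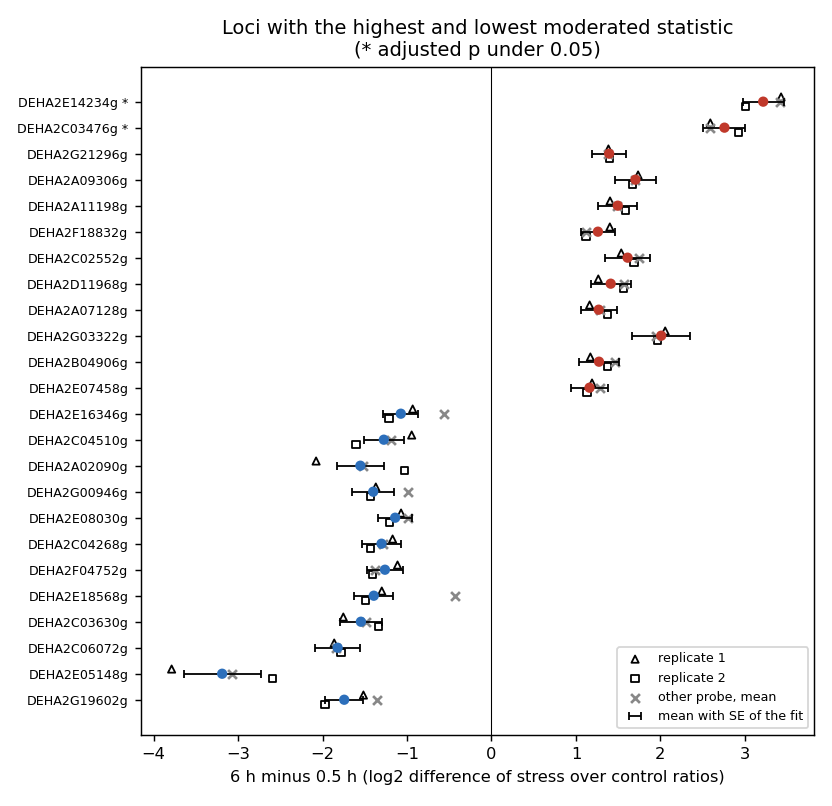
Difference of log2 ratios, 6 h minus 0.5 h (x axis), for the 12 loci with the highest and the 12 with the lowest moderated statistic, ordered by that statistic. Filled points with bars are the mean and SE of the fit, triangles and squares are replicates 1 and 2, and crosses are the mean of the gene's other probe. The 12 higher loci lie between 1.16 and 3.22 and the 12 lower loci between -3.19 and -1.07, and stars mark the 2 that passed the threshold.

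The 3 h arrays give the level in between. They were not used to choose the 85 genes, but they may share controls with the other arrays. The 85 were chosen for 0.5 h and 6 h values far apart. A 3 h mean between them is therefore likely from the choice alone. The following counts are a description, and the same shares over all genes tested were not computed. Of the 57 genes higher at 6 h, 41 had a 3 h mean strictly between their 0.5 h and 6 h means, 14 were as high or higher at 3 h, and 2 were at or below their 0.5 h level. The 3 h mean was past the midpoint in 40 of them. For some of these the 2 arrays of 3 h disagreed widely, as for DEHA2F22726g at 0.74 and 2.74. The ratios on the 3 h array of replicate 2 had the largest SD of the 6 arrays, 0.66, against 0.42 on that of replicate 1. This limits the timing read from these means. Of the 28 genes lower at 6 h, 24 lay between, and 16 were past the midpoint. DEHA2C07216g and DEHA2C17776g, named after their values were seen, were lower at 6 h while both 3 h arrays lay above the control. DEHA2C07216g had a mean of -1.03 at 6 h, against 0.0006 at 0.5 h, with 0.29 and 0.48 at 3 h. DEHA2C17776g had -1.14 and -0.83 at 6 h, against -0.14 and 0.41 at 0.5 h, with 0.62 and 0.41 at 3 h.

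Since both the 6 h and the 0.5 h arrays carried time-0 RNA, the difference can be split into its stressed and its control channel. Brightness was equalised between arrays for this, and each channel was compared between the 6 h and 0.5 h arrays of the same dye orientation. In all 85 genes the stressed channel differed by more than the control channel. The 85 were chosen by the ratio difference, which is the stressed minus the control channel difference, so this count is no separate test. Over all genes tested the SD of the difference was 0.39 in the stressed and 0.15 in the control channel. The stressed channel difference was at least 0.83 in each gene higher at 6 h, with a median of 1.26, and ran from -3.20 to -0.93 in those lower, with a median of -1.48. Control channel differences of the 85 genes stayed between -0.37 and 0.22. For DEHA2E14234g the log2 stressed signals were 12.2 and 11.4 on the 6 h arrays, against 8.91 and 8.55 on the 0.5 h arrays. Its control signals were 11.6 and 11.3 on the 6 h arrays, against 11.7 and 11.4 on the 0.5 h arrays. Thus the stressed signals were well apart while the control signals of each replicate were close. For DEHA2E05148g the stressed signals were 9.29 and 9.83 on the 6 h arrays, against 13.1 and 12.4 on the 0.5 h arrays, and the control channel differed by -0.01 on average.

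**Figure D5:**
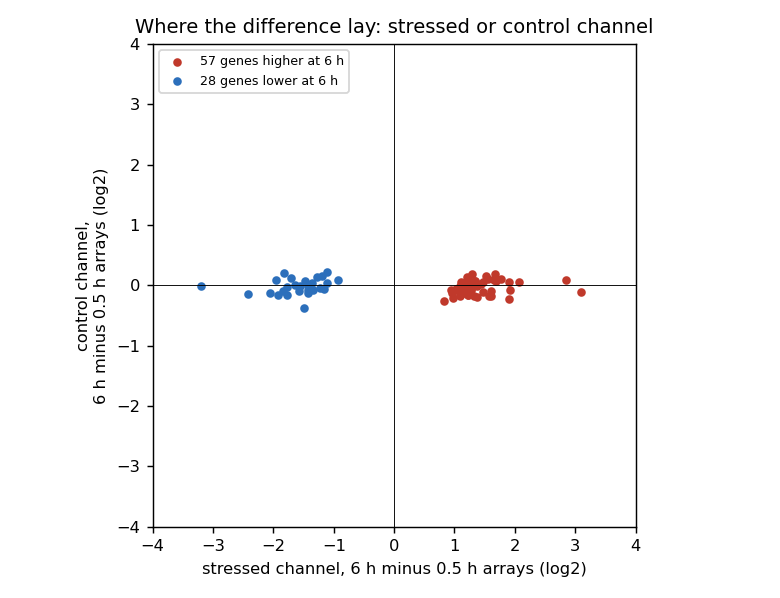
Log2 signal of the 6 h arrays minus that of the 0.5 h arrays, mean of 2 replicates, in the stressed channel (x axis) and the control channel (y axis), on equal scales. Red points are the 57 genes higher at 6 h and blue points the 28 lower. The points spread along the stressed axis and stay between -0.37 and 0.22 on the control axis.

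The 85 genes were bright ones for the most part. When the tested genes were split by mean brightness, the brightest 1989 held 48 of the 57 higher and 25 of the 28 lower, the middle 1988 held 9 and 3, and the dimmest 1989 held 0 and 0. The SD of the mean difference was 0.51 among the brightest, 0.34 in the middle and 0.23 among the dimmest. An offset of 50 was added to both channels, which shrinks the ratios of dim probes. Whether this accounts for the lack of dim genes was not tested. With the scanner software's processed signals, used without the normexp, offset and loess steps, 164 genes were at least 1 higher and 120 at least 1 lower. Among them were 52 and 27 of the genes above. Without background correction, where no offset was added either but loess was kept, the counts were 37 and 22. The other probe of the gene read the same RNA and was kept for 84 of the 85 genes. It had the same sign in all 57 genes higher at 6 h, with a size of at least 1 in 50. In the 27 genes lower at 6 h that had one it had the same sign in all, with a size of at least 1 in 19.

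Sequence likeness between probes touched 11 of the 85 genes, whose probe of 60 bases had 40 or more identical bases with a probe of another gene. The share of all genes tested with such a probe was not computed, so whether 11 is many cannot be told. DEHA2B04928g and DEHA2C07920g shared 51 and differed by 1.34 and 1.32. DEHA2D11968g and DEHA2B15180g shared 45 and differed by 1.41 and 1.19. DEHA2F09614g shared 54 with DEHA2D09460g, which differed by 0.95. In such pairs signal from 1 transcript on the probe of the other was not tested. Outside the 85 genes, the neighbours DEHA2C04510g and DEHA2C04488g had up to 56 identical bases, and their differences were -1.27 and -1.10.

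By the order of loci on the chromosomes in the assembly ASM644v2, 1 adjacent pair was among the 85 genes in the same direction. This was DEHA2B04906g and DEHA2B04928g, with differences of 1.27 and 1.34. How many such pairs a random choice of genes would hold was not computed. DEHA2F04752g stood next to DEHA2F04774g, which is not among them, with differences of -1.26 and -1.19. The neighbours of DEHA2E14234g had differences of 0.23 and 0.07 and those of DEHA2C03476g -0.26 and 0.11, so neither locus lay in a stretch that moved with it. Each of the 7 chromosomes, with 520 to 979 genes tested, held between 6 and 10 of the genes higher at 6 h. This was 0.686% to 1.52% of the genes tested on each. Only the 5120 tested genes with a locus name could be placed, 54 of the 57 higher and 27 of the 28 lower among them. The share of 0.955% over all 5966 genes also counts genes without a chromosome and is no exact match. Of the genes lower at 6 h each held between 0 and 7, or 0% to 1.06%, and the share of 0.469% over all 5966 genes has the same limit. The 0 was on chromosome D, with 659 tested. Differences between chromosomes were not tested.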

How the data were processed

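The deposited scanner files give intensity for each spot and its surroundings, as median, mean and processed signal; per the file headers the software was Feature Extraction 9.1.3.1, and log10 ratios of processed red over green stand beside them. In the authors' value table the entries are log2, salt over control, with scale and direction found against the scanner values (r from 0.988 to 0.996, loess without background correction) and its normalization not given in the sources used here. The submitters' processing notes name limma. Spot flags in the authors' files are other values of 0 or 1.

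Under R 4.3.3, limma 3.58.1 corrected the median signals by normexp (offset 50) and normalized them within arrays by loess, in which control spots had weight 0. Spots flagged as outliers, 18 values, were left out. Ratios were turned by the labelled dyes. Before turning, arrays of opposite orientation correlated negatively. A probe was kept if 2 or more of its 12 channel values were well above background, and the brighter probe stood for a gene. One fit of lmFit and eBayes over 6 arrays, without a block, gave the difference, with Benjamini-Hochberg adjustment at 0.05. The fit was tested on simulated data. Accessions were matched to locus names of ASM644v2, for 5348 of 6320 genes. The file headers give 1 slide and 1 scan time for the 6 arrays, so neither could act as a batch. The rule for named genes was every called gene with a locus name and the 12 highest and 12 lowest by moderated statistic with the same sign in both replicates and in the mean of the other probe, split by whether 0.5 h or 6 h lay closer to the control. Members, lists and rules were chosen with earlier results of these data known. The number of arrays limits the precision.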

Additional observations from a re-analysis of the deposited data

Results flagged for a closer look

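By a test of the difference itself in limma, 2 loci had different log2 ratios at 6 h and 0.5 h. For DEHA2E14234g the difference was 3.22 and for DEHA2C03476g 2.76, both higher at 6 h and each of the same sign in both replicates. With 2 arrays per time, no value was tested for standing apart within a group.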

How the results depend on the processing

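The 53 loci recomputed under the alternatives kept their direction wherever they had a value. All had the same sign in both replicates and in the mean of the other probe, most of them by the way they were chosen. Settings that left out an array or used the other probe could therefore hardly reverse them, and the lack of reversals adds no support. Of the loci named here, DEHA2C07920g, DEHA2B15180g, DEHA2D09460g, DEHA2A11506g and DEHA2F22726g were not recomputed. Genes past the threshold numbered 2, and 1 with no background correction, processed signals, the mean over probes, the dimmer probe or probes well above background in all 12 channel values. They numbered 0 with the deposited values, where 492 had an unadjusted p under 0.05. They numbered 0 to 2 with 1 array left out and 11 with the stressed channel and the replicate block together. With the replicate number as a block, which is also the dye orientation, 5 passed (0.0838% of those tested), DEHA2A09306g, DEHA2E05148g and DEHA2G19602g besides the 2 above. Deviations of same-numbered arrays of 0.5 and 6 h correlated across genes at 0.31, and the labels do not say that they share a culture. Genes at least 1 higher in both replicates numbered 57, against 37 without background correction and 164 with processed signals. Those at least 1 lower numbered 28, against 120 with processed signals, 17 with centring on the median without loess and 15 with the dimmer probe. That centring moved the split to 72 higher and 17 lower. The causes were not tested. DEHA2C03476g had no value under the filter on all 12 channel values, since its probes did not pass it. DEHA2G03322g, DEHA2C07370g, DEHA2E06908g, DEHA2B15928g and DEHA2C17776g also had a value in only 18 of the 19 alternative settings. The rest of the alternatives kept these counts within 1.5 times. Brightness is a limit besides the number of arrays, since 0 of the 1989 dimmest reached a difference of 1 in both replicates.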
